A study of Mus musculus with 54 samples.

Results

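The effect of hepatic Flcn loss on liver RNA was compared between mice fed normal chow and mice fed AMLN diet, gene by gene. For each gene the quantity was the change in LiFKO against Control on AMLN diet minus the same change on chow, on log2 values. It was taken over 4 groups of 3 RNA-seq libraries, 12 of the 54 libraries of the series (15 of them RNA-seq), and over all 13815 genes measured. The 3 RNA-seq libraries of mice that also lacked Tfe3 were left out. All 4 groups were Flcn lox/lox mice, whose Flcn gene Cre recombinase can delete. Control mice received the virus AAV8-TBG-GFP, and LiFKO mice received AAV8-TBG-Cre at the same dose. TBG is a hepatocyte promoter, so Flcn is left in the other cells of the liver. Feeding lasted 17 to 18.5 weeks in all, of normal chow or of AMLN diet, which is rich in fat, fructose and cholesterol and induces steatohepatitis in mice. Livers were taken after a fast of 4 to 6 hours. Sex, age and the source of each library are not given in the labels used here, so p-values measure the spread between libraries, which may be partly technical.

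Folliculin, the product of Flcn, acts with its FNIP partners on the small GTPases RagC and RagD at the lysosome. In that state mTORC1 phosphorylates the transcription factors TFE3 and TFEB and holds them in the cytosol. Without folliculin these factors enter the nucleus and activate genes of lysosomes and mitochondria, while other mTORC1 substrates are less affected. SREBP-1c, encoded by Srebf1, activates the genes of fatty acid synthesis in liver, and overfeeding with sugar and fat raises it. A difference between diets therefore compares the response to folliculin loss in an unchallenged liver with that in a liver under lipid load.

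Flcn itself was lower in LiFKO on both diets. Its log2 values were 11.33, 11.55 and 11.44 in chow Control, 10.55, 10.14 and 10.53 in chow LiFKO, 10.98, 10.92 and 11.06 in AMLN Control and 10.25, 10.56 and 10.43 in AMLN LiFKO. Groups of the same diet did not overlap. Flcn fell by 1.03 on chow (SE 0.12, adjusted p = 7.77e-05) and by 0.57 on AMLN diet (SE 0.12, adjusted p = 0.00558). AMLN Control libraries were already lower than chow Control libraries (change of -0.45, adjusted p = 0.0181), and the difference between diets in the LiFKO effect was 0.46 (SE 0.17, 95% interval 0.09 to 0.83, adjusted p = 0.204), which missed the threshold. Rragd, which encodes RagD and is a known TFE3 target, rose by 5.23 on chow and by 4.73 on AMLN diet (SE 0.15 each). Tfe3 was not called on either diet (-0.10 and -0.24, SE 0.12 each).

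Correlations between libraries of a group were 0.9742 to 0.9878. The first principal component of the 12 libraries (39% of the variance) separated LiFKO from Control and the second (24.9%) the diets. On the second component AMLN Control replicate 3 (21.5) lay nearer to the AMLN LiFKO libraries (13.9 to 17.9) than AMLN Control replicates 1 and 2 did (47.3 and 40.1). Without it, the 56 genes named by the rule and described below as called kept their calls, and counts are given with and without it. Liver markers matched the label: the mean log2 level over 13 measured hepatocyte markers was 17.26 to 17.71 in all 12 libraries. A called difference between diets was found in 0 of the 13 (limma, and 0 at an unadjusted p under 0.05, against 1.48% and 16.1% of all genes). In bulk tissue, fewer cells of a type and less RNA per cell cannot be told apart.

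More genes were called for the LiFKO effect on each diet than for its difference between diets. On chow 1719 genes rose (12.4%) and 1806 fell (13.1%) in LiFKO (limma, adjusted p under 0.05, 25.5% of all genes together). On AMLN diet 1402 rose (10.1%) and 1310 fell (9.48%), 19.6% together. Across the 13815 genes the effects on the diets had a Pearson correlation of 0.64 and a Spearman correlation of 0.52, as a description over genes, which are not independent. The difference between diets was called for 204 genes (1.48%), 59 of them positive (0.427%) and 145 negative (1.05%). At an unadjusted p under 0.05 it was 2219 genes (16.1%). The count of called differences was 112 (29 positive) without the mean-variance trend, and 351 (113 positive) with a replicate block within diet. A positive difference means a higher LiFKO effect on AMLN diet, a negative one a lower effect. Called differences had an absolute size of 0.44 to 7.45, with a median of 1.26. The median SE over all genes was 0.22 for the difference and 0.16 for the LiFKO effect on chow. The difference is thus measured less precisely, and the counts of calls do not show how many genes differ. Without AMLN Control replicate 3 the count was 455 (157 positive, 298 negative), and 197 of the 204 genes were among them. Without AMLN Control replicate 1 or 2 it was 88 or 100, without chow Control replicate 1 or 2 it was 124 or 97, and without AMLN LiFKO replicate 1 or 2 it was 117 or 120. Over the 12 fits that left out a library, 73 of the 204 genes were called in all 12, and all 204 kept their sign.

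**Figure D1:**
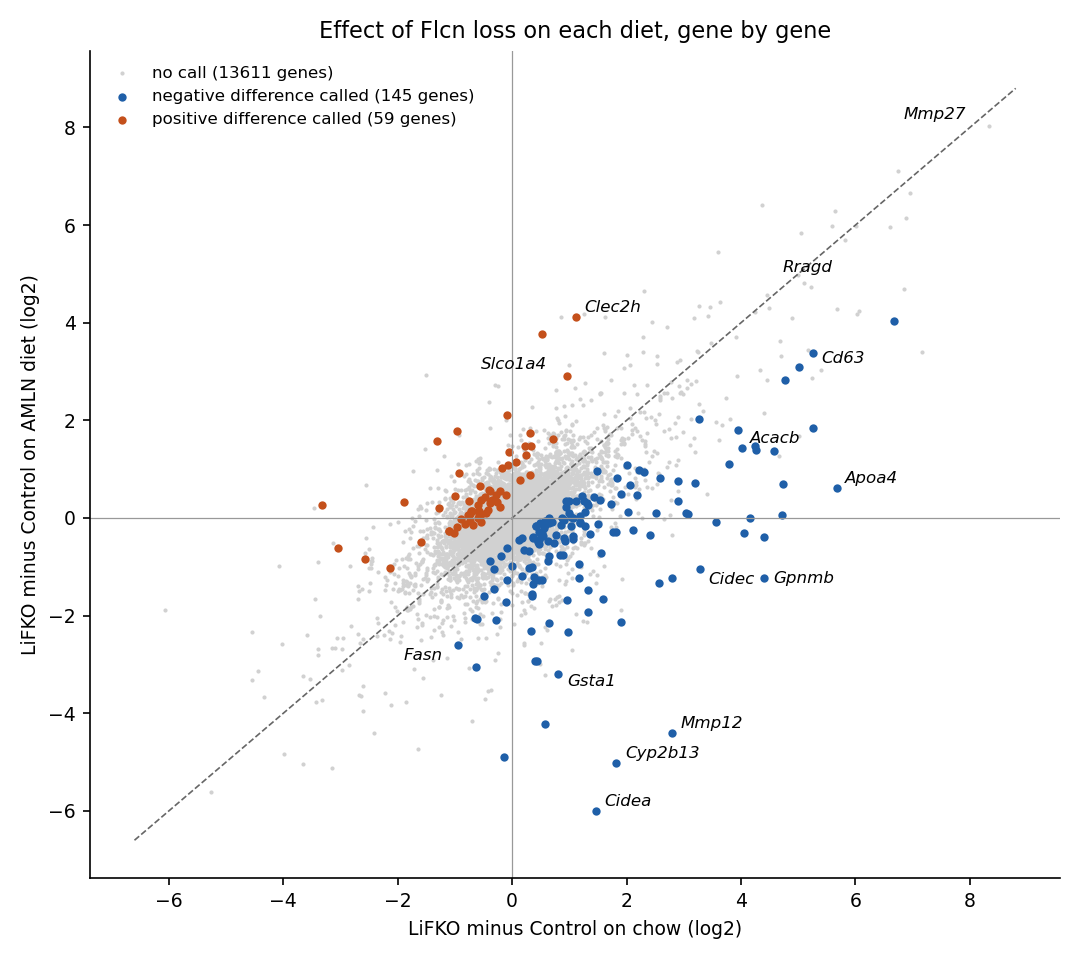
Each point is a gene, with the LiFKO effect on chow (x axis, log2) against that on AMLN diet (y axis, log2), means of 3 against 3 libraries. Blue points are the 145 genes with a called negative difference, orange points the 59 with a positive one, grey points the other genes, and the dashed line marks equal effects. Apoa4 lies at 5.67 and 0.62, Cidea at 1.46 and -6.00, and Slco1a4 at 0.95 and 2.90.

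The 204 genes fell into 4 classes by where the LiFKO effect was called. In 86 genes (42.2%) it was called on chow alone, 60 with a negative and 26 with a positive difference. In 51 (25%) it was called on AMLN diet alone, 33 negative and 18 positive. In 37 (18.1%) the effect had the same direction on both diets and a different size, 30 negative and 7 positive. In 30 (14.7%) it was called in opposite directions, 22 negative and 8 positive. Among the 145 negative genes the chow Control mean was the lowest of the 4 group means in 122. The highest mean was that of AMLN Control in 79 and of chow LiFKO in 50. Among the 59 positive genes chow Control was highest in 42, and AMLN Control lowest in 34 or chow LiFKO lowest in 22.

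The same difference can be read as a diet effect that depends on Flcn. AMLN feeding changed 3133 genes in Control (22.7%) and 500 in LiFKO (3.62%, of which 1.46% higher and 2.16% lower). Without chow Control replicate 1 or 2 the Control count was 2008 or 1954, and without AMLN Control replicate 1 or 2 it was 1972 or 2036. Without chow LiFKO replicate 1 or 2 the LiFKO count was 104 or 127, and without AMLN LiFKO replicate 1, 2 or 3 it was 187, 224 or 285. With a replicate block within diet the counts were 2028 in Control and 254 in LiFKO, and without the trend the LiFKO count was 250. Of the 145 negative genes 137 were called higher on AMLN diet in Control (11.2% of all genes were), and 127 of these had no call in LiFKO. Of the 59 positive genes 48 were called lower on AMLN diet in Control (11.5% of all genes), and 45 of these had no call in LiFKO. These calls share libraries with the difference itself, so the counts describe the genes and are not further evidence.

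Genes of lipid handling were among those whose LiFKO effect was called on chow alone. Apoa4 encodes an apolipoprotein that the fatty liver secretes. The gene lies on chr9:46048779-46051542 (mm9, the build of the expression table). Its log2 values were 12.26, 10.60 and 10.14 in chow Control, 16.14, 17.24 and 16.62 in chow LiFKO, 17.15, 16.44 and 15.62 in AMLN Control and 17.24, 17.13 and 16.71 in AMLN LiFKO. The chow Control libraries were low, and the other 3 groups overlapped. Apoa4 rose by 5.67 on chow (SE 0.50), its change on AMLN diet was 0.62 (SE 0.50, adjusted p = 0.428), and the difference was -5.05 (SE 0.70, adjusted p = 0.00616). Osbpl3, an oxysterol-binding protein relative that acts at membrane contacts, had the same shape. It was at 8.59, 7.99 and 8.85 in chow Control, 11.86, 12.36 and 11.89 in chow LiFKO, 12.28, 12.02 and 11.60 in AMLN Control and 12.20, 11.91 and 11.51 in AMLN LiFKO. Its difference was -3.65 (SE 0.35, adjusted p = 0.000754). Both calls held in all 12 fits that left out a library.

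Cidec enlarges lipid droplets in fat-laden hepatocytes. It was at 8.42, 8.82 and 8.92 in chow Control, 11.32, 12.84 and 11.83 in chow LiFKO, 13.20, 13.33 and 11.06 in AMLN Control and 12.18, 11.63 and 10.64 in AMLN LiFKO. On AMLN diet the groups overlapped because of AMLN Control replicate 3. Cidec rose by 3.28 on chow (SE 0.57), its change on AMLN diet was -1.05 (SE 0.57, adjusted p = 0.228), and the difference was -4.32 (SE 0.80, adjusted p = 0.0219). That call was lost without chow Control replicate 1 or 2 or AMLN Control replicate 1 or 2 and was -5.06 to -3.90 over the fits that left out a library. Lipoprotein lipase Lpl, the lysophosphatidylcholine carrier Mfsd2a and the fatty acid transporter Cd36 also rose on chow, by 2.89, 1.77 and 2.89, with no call on AMLN diet (0.34, -0.29 and 0.76). Their differences were -2.54, -2.06 and -2.12 (SE 0.47, 0.36 and 0.40). The Lpl call was lost without chow Control replicate 2, chow LiFKO replicate 2, AMLN LiFKO replicate 1 or 2, or AMLN Control replicate 2. The Cd36 call held without chow Control replicate 3, chow LiFKO replicate 1, AMLN Control replicate 3 or AMLN LiFKO replicate 1 and was lost in the other 8 fits (-2.55 to -1.89).

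Gpnmb, a lysosomal glycoprotein of macrophages that TFE3 activates, moved the same way. It was at 4.55, 3.13 and 4.82 in chow Control, 7.92, 9.6 and 8.2 in chow LiFKO, 9.71, 9.75 and 8.14 in AMLN Control and 8.03, 7.81 and 8.08 in AMLN LiFKO. Chow Control stood alone at the low end, well below 9.78, the median of the genes' mean log2 values. The difference was -5.64 (SE 0.77, adjusted p = 0.00576), from 4.41 on chow and -1.23 on AMLN diet (adjusted p = 0.138). Other genes called on chow alone were Tceal8, a small nuclear protein gene (difference -3.00, SE 0.23), the transcription factor Jun (-2.36, SE 0.38), Lcn2, a secreted iron-siderophore carrier (-4.02, SE 0.60), and Pgm3 of the hexosamine pathway (-1.46, SE 0.21). Their chow effects were 3.08, 2.11, 2.79 and 1.73, and their AMLN effects 0.08, -0.25, -1.23 and 0.28. These 4 calls and that of Gpnmb held in all 12 fits that left out a library.

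**Figure D2:**
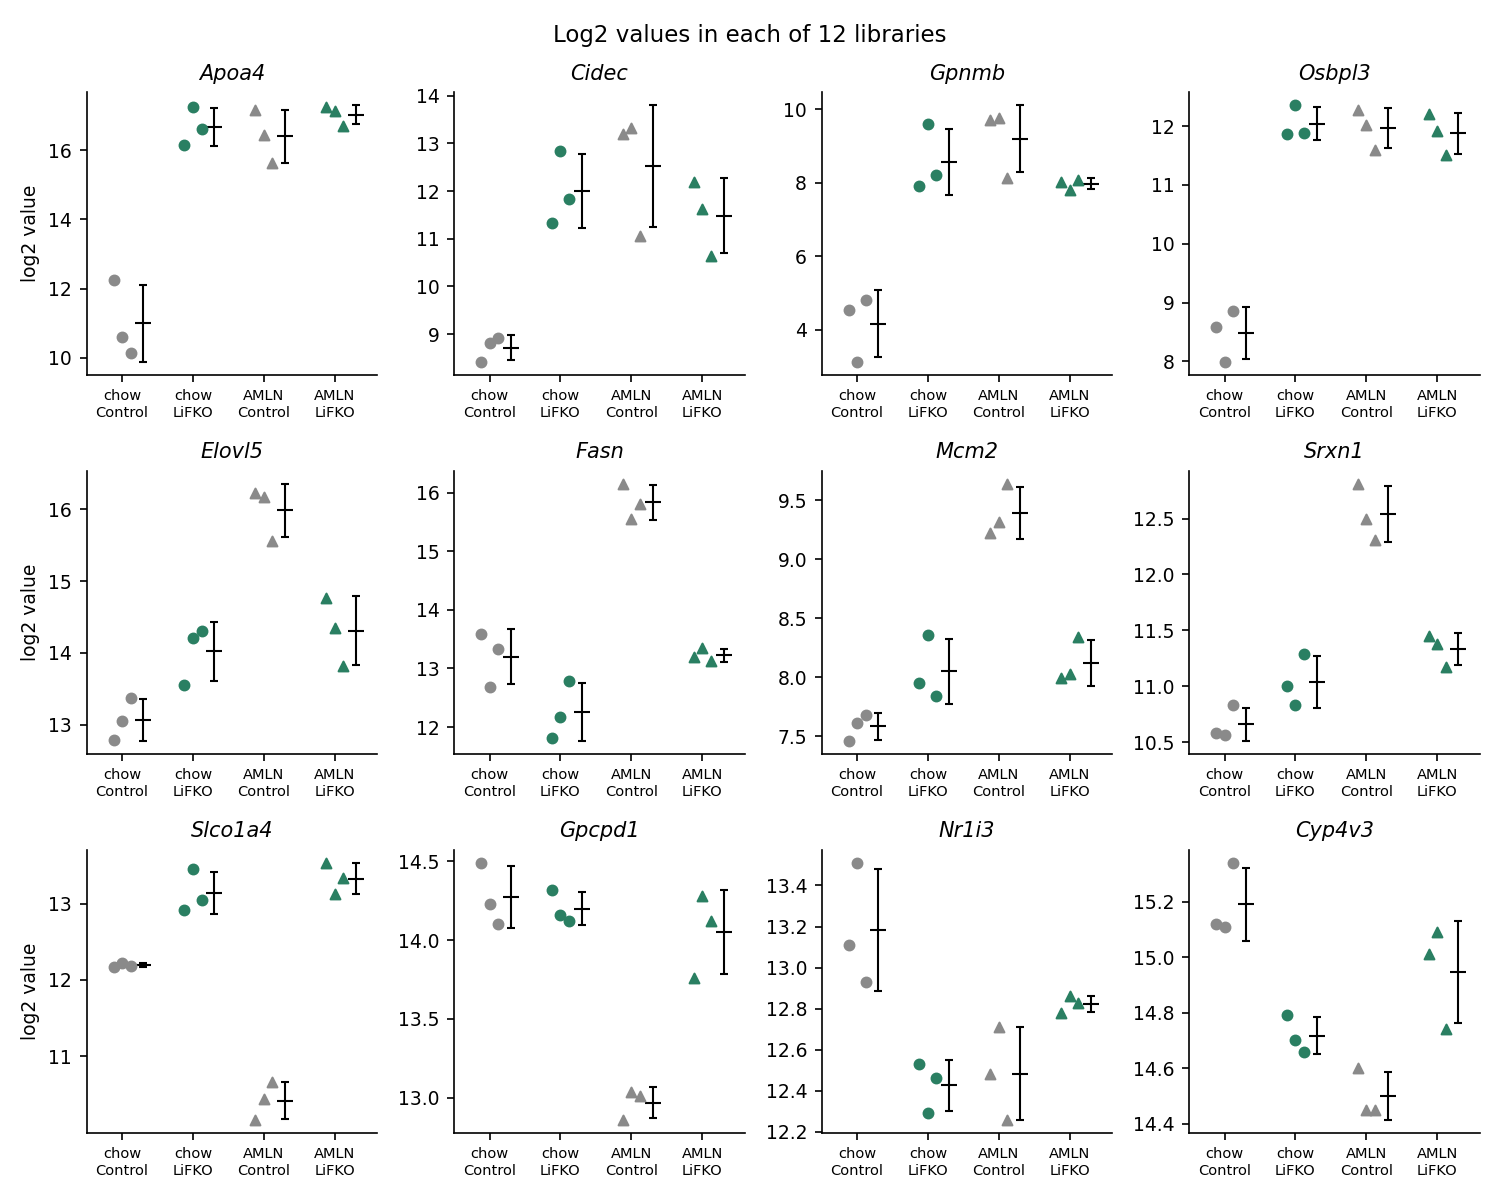
Log2 values (y axes, each with its own range) of 12 genes in each of the 12 libraries, with grey for Control, green for LiFKO, circles for chow and triangles for AMLN diet. Horizontal ticks with bars are the mean and SD of 3 libraries. Apoa4, Cidec, Gpnmb and Osbpl3 are low in chow Control, Elovl5, Fasn, Mcm2 and Srxn1 are high in AMLN Control, and Slco1a4 and Gpcpd1 are low there.

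More lipogenic genes fell with Flcn loss on AMLN diet than on chow. Of 22 measured genes of fatty acid synthesis and its regulation, 8 fell and 4 rose on chow, and 16 fell and 2 rose on AMLN diet. On both diets 7 of the 22 fell, and over all genes 700 of 13815 did. Over all genes 13.1% fell and 12.4% rose on chow, and 9.48% fell and 10.1% rose on AMLN diet. The median LiFKO effect was -0.36 on chow and -1.36 on AMLN diet, against -0.05 and -0.02 over all genes. The difference was called for 7 of the 22 (1.48% over all genes), all negative, and was not called for the others. It was negative in sign for 19 of the 22. Its median was -0.85, against 0.03 over all genes, and -1.11 without chow LiFKO replicate 2. The 7 were the elongases Elovl5 and Elovl6, the desaturases Scd2, Scd3 and Fads2, fatty acid synthase Fasn and the acetyl-CoA carboxylase Acacb (Scd3 and Elovl6 were named after their values were seen). Members of the Scd family share sequence, and reads of such genes may have been split between them.

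In mm9 Fasn lies on chr11:120667254-120685492, Elovl5 on chr9:77765171-77832326 and Acacb on chr5:114596544-114700770. Fasn was at 13.58, 12.68 and 13.34 in chow Control, 11.81, 12.17 and 12.78 in chow LiFKO, 16.15, 15.55 and 15.81 in AMLN Control and 13.20, 13.35 and 13.13 in AMLN LiFKO. AMLN Control was high, and AMLN LiFKO lay within the range of chow Control. Fasn fell by 0.95 on chow (SE 0.25, adjusted p = 0.0169) and fell by 2.61 on AMLN diet (SE 0.25, adjusted p = 3.13e-05). The difference was -1.67 (SE 0.36, 95% interval -2.45 to -0.88, adjusted p = 0.0437). The call held without chow Control replicate 1, chow LiFKO replicate 1 or AMLN Control replicate 3, and was lost in the other 9 fits, with values of -1.89 to -1.4. Elovl5, which elongates polyunsaturated fatty acids, changed in opposite directions. It was at 12.78, 13.05 and 13.37 in chow Control, 13.55, 14.21 and 14.31 in chow LiFKO, 16.23, 16.17 and 15.56 in AMLN Control and 14.77, 14.34 and 13.81 in AMLN LiFKO. It rose by 0.96 on chow (SE 0.27, adjusted p = 0.021) and fell by 1.68 on AMLN diet (SE 0.27, adjusted p = 0.000991), a difference of -2.64 (SE 0.38, adjusted p = 0.0073). The groups of a diet did not overlap, and the call held in all 12 fits that left out a library.

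Acacb produces malonyl-CoA at the mitochondrial surface, where it slows the import of fatty acids. It was at 11.17, 10.38 and 11 in chow Control, 14.93, 14.86 and 14.78 in chow LiFKO, 13.14, 13 and 13.16 in AMLN Control and 14.50, 14.23 and 14.86 in AMLN LiFKO. LiFKO was higher on both diets, by 4.01 on chow and 1.43 on AMLN diet (SE 0.19 each), and the difference was -2.58 (SE 0.26, adjusted p = 0.00103). Fads2 rose by 1.27 on chow and had no call on AMLN diet (-0.16, SE 0.15), a difference of -1.42 (SE 0.21, adjusted p = 0.00918). Scd2 fell by 1.36 on AMLN diet with 0.37 on chow, a difference of -1.73 (SE 0.36). Its call held in 5 of the 12 such fits: without chow Control replicate 3, chow LiFKO replicate 1, AMLN Control replicate 3, AMLN Control replicate 1 or AMLN LiFKO replicate 1 (-1.95 to -1.51). Elovl6 and Scd3 had differences of -1.64 and -1.95. Scd1, the main liver desaturase, was just outside the threshold (-1.97, SE 0.44, adjusted p = 0.0504). It had the value 20.65 in all 3 AMLN Control libraries, a tie that quantile normalisation gives to genes of the same rank, and its call was made without chow Control replicate 3, chow LiFKO replicate 1 or AMLN Control replicate 3. Srebf1 fell on both diets (-0.63 and -1.35, SE 0.20 each) with no called difference (-0.72, 95% interval -1.33 to -0.11, adjusted p = 0.232). Acaca, Acly and Pnpla3 had no called difference either (-0.58, -0.65 and -2.37).

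**Figure D3:**
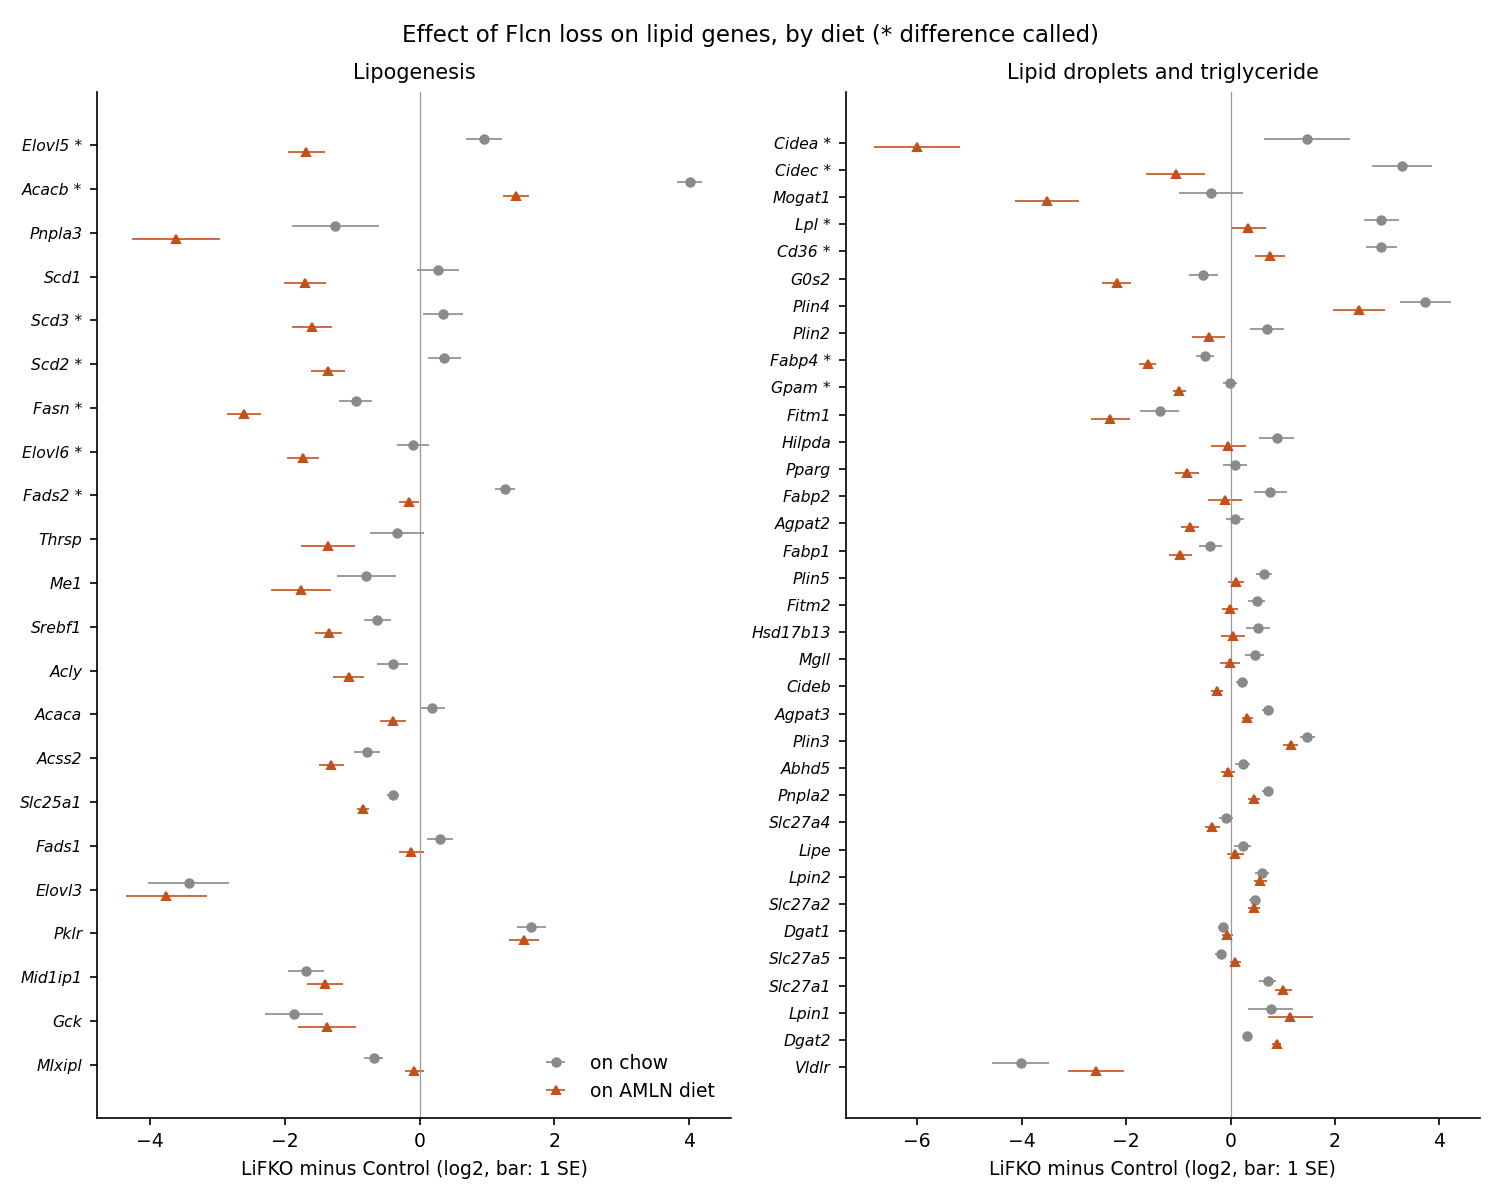
LiFKO effect on chow (grey circles) and on AMLN diet (orange triangles) for 22 lipogenic genes and 35 genes of lipid droplets and triglyceride (x axes in log2, bars 1 SE), ordered by the difference between diets. An asterisk marks a called difference (7 and 6 genes), and in all 13 the triangle lies to the left of the circle.

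The promoters of Fasn and Acacb are shown because peaks of both TFE3 and nuclear SREBP-1c were deposited near their mm9 starts, in livers of the same series. TFE3 peaks are from chow-fed Control and LiFKO mice. HA-tagged nSREBP-1c, the active nuclear form, was delivered by virus to mice on FPC diet (fructose, palmitate, cholesterol). At Fasn the TFE3 peak had a score of 25.3 in Control and 41.2 in LiFKO, centred at -279 and -326 bases from the mm9 start. The 250 bases printed below end at the RefSeq start on GRCm38.p6, and whether that is the mm9 start was not checked for Fasn or Acacb. Where their peaks lie relative to the printed bases is therefore not known. The HA peak at Fasn had a score of 6.04 in Control, centred at -9 bases from the mm9 start. At Acacb the TFE3 scores were 19.9 and 36.2, both centred at -246 bases. The HA score at Acacb in Control was 5.44, centred at -294 bases from the mm9 start. Scores are the authors' for each list and cannot be compared between lists. The 250 bases before each start follow, 5′ to 3′ on the gene's strand, from RefSeq on GRCm38.p6. The search covered both strands for the E-box CACGTG that TFE3 binds, its longer form TCACGTGAC and the sterol element TCACNCCAC, and found none of them in either window, which says no more than that these letters are absent there. Over the 27025 promoters of the table, 6.05% hold the E-box, 0.64% the longer form, which contains it, and 1.04% the sterol element. The Fasn window lies on chr11:120824548-120824797 (minus strand) and the Acacb window on chr5:114165268-114165517 (plus strand).
Fasn: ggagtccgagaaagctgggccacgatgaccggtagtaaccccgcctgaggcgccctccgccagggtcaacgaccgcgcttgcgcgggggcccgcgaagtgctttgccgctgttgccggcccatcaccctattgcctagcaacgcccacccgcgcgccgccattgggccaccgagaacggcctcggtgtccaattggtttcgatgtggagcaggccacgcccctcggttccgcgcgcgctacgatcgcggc
Acacb: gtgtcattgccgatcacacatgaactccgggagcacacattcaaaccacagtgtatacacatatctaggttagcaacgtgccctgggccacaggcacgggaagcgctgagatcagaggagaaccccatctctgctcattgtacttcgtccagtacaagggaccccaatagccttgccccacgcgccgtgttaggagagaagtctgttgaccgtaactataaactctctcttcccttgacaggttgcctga

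Some genes of lipid droplets, triglyceride synthesis and fatty acid uptake also had a called negative difference. Of 35 measured, 13 rose and 2 fell on chow (12.4% and 13.1% over all genes). On AMLN diet 7 rose and 10 fell (10.1% and 9.48% over all genes). The medians of the 35 were 0.46 and -0.04. Called differences numbered 6 (1.48% over all genes), all negative, and the other 29 did not pass. The median of the 35 was -0.51, and 6 of the 35 were positive in sign. Besides Cidec, Lpl and Cd36 these were Cidea, Fabp4 and Gpam. Cidea, a droplet protein of brown fat that appears in fatty liver, was at 2.55, 3.73 and 2.32 in chow Control, 3.21, 4.19 and 5.56 in chow LiFKO, 10.58, 11.05 and 9.33 in AMLN Control and 6.20, 3.61 and 3.16 in AMLN LiFKO. AMLN Control stood alone at the high end. Cidea fell by 6.00 on AMLN diet (SE 0.82) and the difference was -7.45 (SE 1.16, adjusted p = 0.0109). Its low values are near the floor of the table (1.00), where a log2 value rests on few reads, so the size is uncertain. Gpam, the first enzyme of glycerolipid synthesis, had -0.01 on chow and fell by 0.98 on AMLN diet, and the fatty acid binding protein Fabp4 had -0.49 and fell by 1.59 (both named after their values were seen). Plin4, a droplet coat protein, rose on both diets (3.73 and 2.46, SE 0.49 each) with no called difference (-1.27, 95% interval -2.77 to 0.22).

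A second group had no call on chow and fell on AMLN diet, where Control was high. Of 21 measured NRF2 targets, genes of glutathione and NADPH supply, 3 fell and 1 rose on chow, and 13 fell and 1 rose on AMLN diet (medians -0.20 and -0.78). Over all genes 13.1% fell and 12.4% rose on chow, and 9.48% and 10.1% on AMLN diet. Called differences numbered 4 (1.48% over all genes), all negative: Srxn1, Pgd, Gsr and Gsta1. Srxn1, which repairs peroxiredoxins, was at 10.58, 10.57 and 10.83 in chow Control, 11, 10.83 and 11.29 in chow LiFKO, 12.81, 12.50 and 12.31 in AMLN Control and 11.45, 11.38 and 11.17 in AMLN LiFKO. AMLN Control was above the other 3 groups, with no overlap. Srxn1 fell by 1.21 on AMLN diet (SE 0.15) with 0.38 on chow (adjusted p = 0.0755), a difference of -1.59 (SE 0.21, adjusted p = 0.00521). Pgd of the pentose phosphate pathway had a difference of -1.36 (SE 0.18), also called in all 12 fits that left out a library. Glutathione reductase Gsr had -0.58 (SE 0.12) and the glutathione transferase Gsta1 -4.00 (SE 0.82), each called in 3 of those fits. The Gsr call held without chow LiFKO replicate 2, AMLN Control replicate 3 or AMLN LiFKO replicate 3 (-0.65 to -0.50), and the Gsta1 call without chow Control replicate 3, AMLN Control replicate 3 or AMLN LiFKO replicate 3 (-4.66 to -3.51). Gsta1 has near-identical relatives, so its value is uncertain.

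Cell cycle genes had the largest negative median difference among the 31 lists with 10 or more measured genes. Of 23 measured, 2 rose and 1 fell on chow (12.4% and 13.1% over all genes). On AMLN diet 0 rose and 10 fell (10.1% and 9.48% over all genes). The median effect was 0.28 on chow and -1.25 on AMLN diet, the median difference -1.08, and the sign negative in 22. The difference was called for Mcm2 and Mcm6, subunits of the replicative helicase, and 13 of the 23 had an unadjusted p under 0.05 (over all genes 1.48% were called and 16.1% had such a p). Mcm2 was at 7.46, 7.61 and 7.68 in chow Control, 7.95, 8.36 and 7.84 in chow LiFKO, 9.22, 9.32 and 9.64 in AMLN Control and 7.99, 8.03 and 8.34 in AMLN LiFKO. AMLN Control was the high group, without overlap. Mcm2 fell by 1.27 on AMLN diet (SE 0.18), with a difference of -1.74 (SE 0.25, adjusted p = 0.00734), and Mcm6 fell by 1.55, with a difference of -1.89 (SE 0.33, adjusted p = 0.0172). Ccnb2, a mitotic cyclin, was just outside the threshold (-2.55, adjusted p = 0.0517) and was called without chow Control replicate 3, chow LiFKO replicate 2 or AMLN Control replicate 3. Other genes called on AMLN diet alone were the tubulin Tubb2a (-2.93 on AMLN diet, difference -3.35, SE 0.45; Tubb2b is a close relative) and the hepatocyte keratin Krt8 (-1.45 on AMLN diet, difference -1.13, SE 0.16). Krt8 was at 14.66, 14.53 and 14.25 in AMLN Control and at 12.89 to 13.36 in the other 9 libraries.

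**Figure D4:**
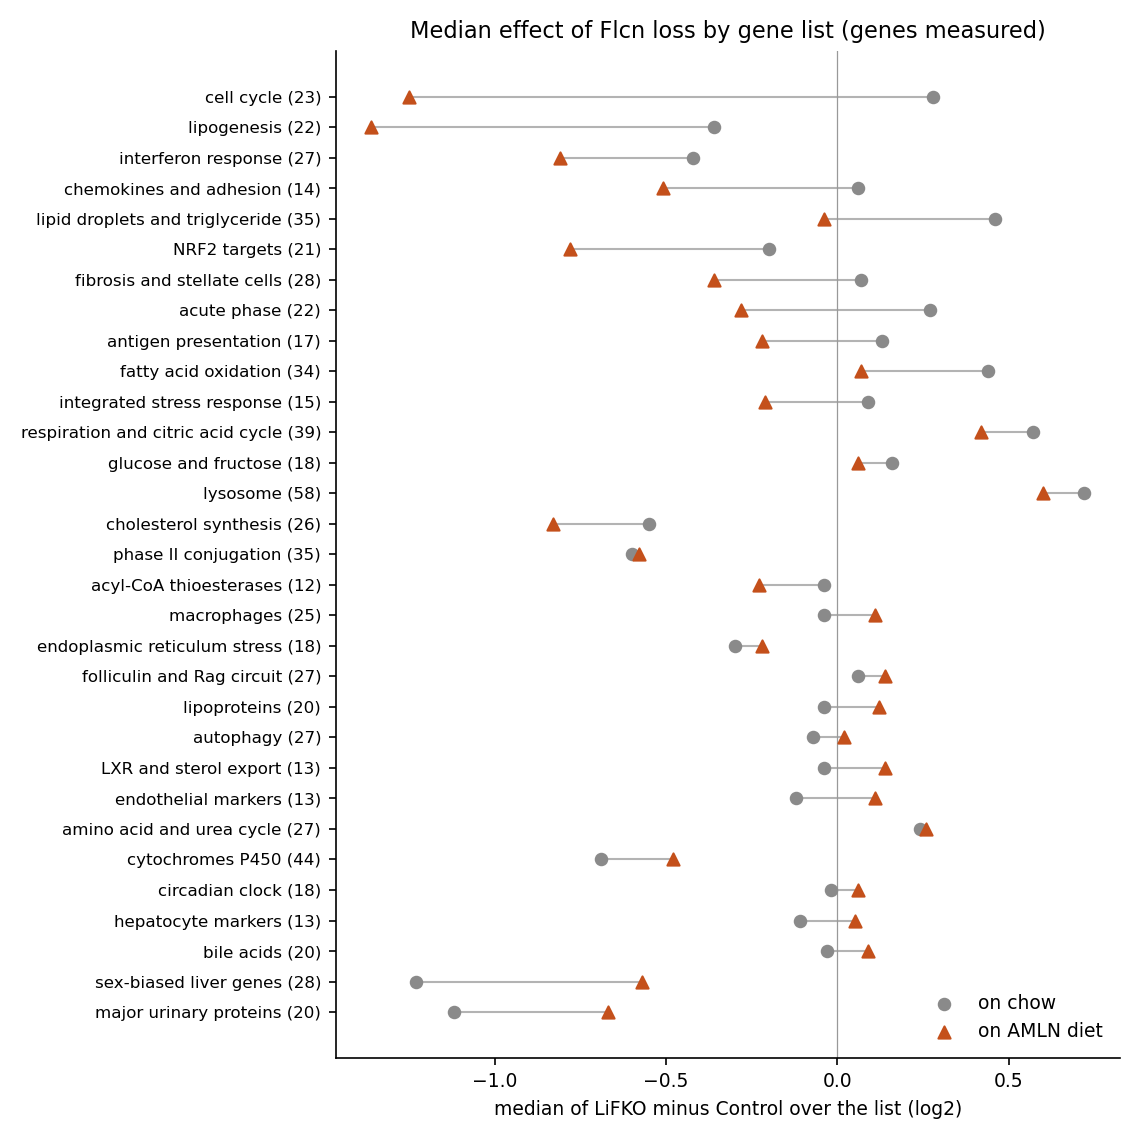
Median LiFKO effect on chow (grey circles) and on AMLN diet (orange triangles) over each gene list with 10 or more measured genes (x axis in log2, number of genes in parentheses), ordered by the median difference. Cell cycle (0.28 to -1.25) and lipogenesis (-0.36 to -1.36) lie far apart, and lysosome (0.72 to 0.60) lies close together.

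In 30 genes Flcn loss had called effects in opposite directions. Besides Elovl5 they included Fkbp1a, the protein through which rapamycin acts, which rose by 0.76 on chow and fell by 0.35 on AMLN diet (difference -1.11, SE 0.15). Epha2, a receptor tyrosine kinase, rose by 1.17 and fell by 1.22 (SE 0.27 each). The serum amyloid gene Saa2 rose by 1.59 and fell by 1.65 (SE 0.39 each), and Parp3, of DNA repair, rose by 0.53 and fell by 0.31. Mmp12, a macrophage elastase, rose by 2.80 and fell by 4.41 (SE 0.77 each). It was at 2.55, 3.73 and 5.29 in chow Control, 5.89, 5.91 and 8.17 in chow LiFKO, 10.83, 10.63 and 8.85 in AMLN Control and 6.20, 5.73 and 5.16 in AMLN LiFKO. Its chow values were low, and 2.55 and 3.73 are also the values of Cidea, near the floor of the table (1.00). The size of its difference is therefore uncertain. In the reverse direction Notum, a secreted Wnt inhibitor, fell by 0.56 on chow and rose by 0.66 on AMLN diet. Txlng (-0.35 and 0.37) and the phosphate transporter relative Slc17a2 (-0.54 and 0.36) did likewise. These 8 calls held in all 12 fits that left out a library.

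Cyp4v3, a fatty acid omega-hydroxylase, also changed in opposite directions. It was at 15.12, 15.11 and 15.34 in chow Control, 14.79, 14.70 and 14.66 in chow LiFKO, 14.60, 14.45 and 14.45 in AMLN Control and 15.01, 15.09 and 14.74 in AMLN LiFKO. LiFKO was the lower group on chow and the higher group on AMLN diet, with no overlap on either. It fell by 0.47 on chow and rose by 0.44 on AMLN diet (SE 0.11 each), a difference of 0.92 (SE 0.15, adjusted p = 0.0135).

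Where both effects had the same direction, the effect was smaller on AMLN diet in 29 of 37 genes. Cd63, a tetraspanin protein found in lysosomal and endosomal membranes (mm9 chr10:128345975-128349872), was at 7.49, 7.64 and 7.64 in chow Control, 12.89, 13.13 and 12.52 in chow LiFKO, 9.52, 9.55 and 9.30 in AMLN Control and 12.66, 12.84 and 12.98 in AMLN LiFKO. The LiFKO groups overlapped and the Control groups did not. Cd63 rose by 5.26 on chow and 3.37 on AMLN diet (SE 0.14 each), a difference of -1.89 (SE 0.20, adjusted p = 0.00142). The annotated pseudogene Cd63-ps shares sequence with Cd63, so reads may have been split between them. Uap1l1, a relative of a hexosamine pathway enzyme, rose by 4.77 and 2.83 (difference -1.94, SE 0.30), Apoc2, the cofactor of lipoprotein lipase, by 2.06 and 0.68 (-1.38, SE 0.15) and Pnpla7, a lysophospholipase, by 1.43 and 0.44 (-0.99, SE 0.15). These 4 calls held in all 12 fits that left out a library. Lpcat3, which puts polyunsaturated fatty acids into phospholipids, rose by 1.12 and 0.34. Its difference of -0.78 (SE 0.15) was called without chow Control replicate 1, chow LiFKO replicate 2, AMLN Control replicate 3 or AMLN LiFKO replicate 1 and lost in the other 8 fits (-0.88 to -0.69).

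The 59 positive genes included transporters and enzymes of hepatocytes. Slco1a4, an organic anion and bile salt carrier (mm9 chr6:141753961-141804720), was at 12.17, 12.22 and 12.18 in chow Control, 12.92, 13.45 and 13.05 in chow LiFKO, 10.17, 10.44 and 10.66 in AMLN Control and 13.53, 13.12 and 13.33 in AMLN LiFKO. AMLN Control was low, and the LiFKO groups overlapped. Slco1a4 rose by 0.95 on chow and 2.90 on AMLN diet (SE 0.15 each), a difference of 1.95 (SE 0.21, adjusted p = 0.00155). Gpcpd1, a glycerophosphocholine phosphodiesterase, was at 14.49, 14.23 and 14.10 in chow Control, 14.32, 14.16 and 14.12 in chow LiFKO, 12.86, 13.04 and 13.01 in AMLN Control and 13.76, 14.28 and 14.12 in AMLN LiFKO. AMLN Control alone was low, and the difference was 1.16 (SE 0.19, adjusted p = 0.0136). Fn3k, which removes sugar adducts from proteins, rose by 1.48 on AMLN diet with 0.33 on chow (difference 1.15, SE 0.16), and the calls of these 3 genes held in all 12 fits that left out a library. Abca8a, a sterol and lipid transporter, rose by 1.75 with 0.32 on chow (1.43, SE 0.25), a call that did not hold without chow Control replicate 2 or AMLN Control replicate 1 or 2 (1.24 to 1.57). The glutamate transporter Slc1a2 rose by 1.14 with 0.07 on chow (1.07, SE 0.22). Its call held without chow Control replicate 1, chow LiFKO replicate 3, AMLN Control replicate 2, AMLN Control replicate 3 or AMLN LiFKO replicate 1 and was lost in the other 7 fits (0.96 to 1.24).

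Nuclear receptors were among the genes lower in LiFKO on chow alone. Nr1i3 encodes CAR, a receptor that switches on drug metabolism. It was at 13.11, 13.51 and 12.93 in chow Control, 12.53, 12.29 and 12.46 in chow LiFKO, 12.48, 12.71 and 12.26 in AMLN Control and 12.78, 12.86 and 12.83 in AMLN LiFKO. Chow Control was high, and AMLN LiFKO lay between it and the other 2 groups. Nr1i3 fell by 0.76 on chow (SE 0.14, adjusted p = 0.00213), with 0.34 on AMLN diet (adjusted p = 0.115), a difference of 1.10 (SE 0.20, adjusted p = 0.0214) that was lost without AMLN Control replicate 1 or AMLN LiFKO replicate 2 (0.94 to 1.23). Nr1h4, the bile acid receptor FXR, fell by 0.58 on chow with 0.09 on AMLN diet (difference 0.67, SE 0.13). Its call held without chow Control replicate 3, chow LiFKO replicate 3, AMLN Control replicate 3 or AMLN LiFKO replicate 2 or 3 and was lost in the other 7 fits (0.61 to 0.77). Npr2, a natriuretic peptide receptor, fell by 1.27 on chow with 0.21 on AMLN diet, and Ugt2a3, a glucuronosyltransferase, fell by 0.78 with 0.07. Their differences of 1.49 (SE 0.22) and 0.86 (SE 0.10) were called in all 12 fits that left out a library. Ugt2a3 showed the smaller spread, with 14.45, 14.36 and 14.45 in chow Control, 13.64, 13.69 and 13.58 in chow LiFKO, 13.90, 13.93 and 13.76 in AMLN Control and 13.95, 13.97 and 13.89 in AMLN LiFKO. Cyp3a11, a drug-metabolising P450 that CAR and PXR regulate, went the other way. It rose by 1.07 on chow with -0.37 on AMLN diet, a difference of -1.44 (SE 0.30) called without chow LiFKO replicate 1, AMLN Control replicate 3 or AMLN LiFKO replicate 3 and lost in the other 9 fits (-1.64 to -1.18). Its relatives share sequence with it, so its value is uncertain. Of 44 measured P450 genes and regulators 1 had a positive and 2 a negative call (0.427% and 1.05% over all genes).

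Of the 63 genes picked by the naming rule that had a called difference, 55 had a promoter in the RefSeq table. Of these 55, 22 had a TFE3 peak within 1000 bp of the mm9 start in chow LiFKO. An E-box lay in the 250 bases before the RefSeq start in 6 (6.05% over the table), and 4 had both. The share of all genes with a peak at the start is not given here. The 22 and the 4 therefore cannot be set against all genes and only describe the genes. They are Cyp4v3, Nr1i3, Pdxk and Pnpla7, and they were picked after their values were seen. Pdxk, the kinase that makes the active form of vitamin B6, rose by 0.71 on chow and by 1.62 on AMLN diet, a difference of 0.91 (SE 0.19) called without chow Control replicate 3, AMLN Control replicate 3 or AMLN LiFKO replicate 2 and lost in the other 9 fits (0.81 to 1.07). TFE3 peak scores in chow Control and LiFKO were 20.4 and 28.5 at Cyp4v3, 17.9 and 26.9 at Nr1i3, 27.3 and 51.0 at Pdxk and 20.1 and 42.1 at Pnpla7. In LiFKO the peaks were centred at -74, -877, 146 and 141 bases from the mm9 start in that order. Whether the mm9 and RefSeq starts of these genes are the same was not checked. The place of the peaks relative to the printed windows is therefore not known. In these windows (RefSeq, GRCm38.p6, 5′ to 3′ on the gene's strand) capitals mark the E-box CACGTG, which begins 171, 244, 180 and 63 bases before the start in that order. The windows lie on chr8:45333164-45333413 (minus), chr1:171213720-171213969 (plus), chr10:78464949-78465198 (minus) and chr2:24975783-24976032 (plus). A match of letters is a description and not a shown binding site, and the 4 genes include both signs of the difference.
Cyp4v3: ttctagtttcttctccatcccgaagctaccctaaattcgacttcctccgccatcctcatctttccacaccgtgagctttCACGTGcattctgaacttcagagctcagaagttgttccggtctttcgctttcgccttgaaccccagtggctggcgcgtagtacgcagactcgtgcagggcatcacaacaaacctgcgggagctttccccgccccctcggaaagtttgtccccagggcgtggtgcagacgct
Nr1i3: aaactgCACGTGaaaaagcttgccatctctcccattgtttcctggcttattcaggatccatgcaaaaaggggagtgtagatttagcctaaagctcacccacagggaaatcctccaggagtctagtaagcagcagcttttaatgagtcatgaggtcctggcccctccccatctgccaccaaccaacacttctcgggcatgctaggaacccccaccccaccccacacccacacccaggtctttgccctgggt
Pdxk: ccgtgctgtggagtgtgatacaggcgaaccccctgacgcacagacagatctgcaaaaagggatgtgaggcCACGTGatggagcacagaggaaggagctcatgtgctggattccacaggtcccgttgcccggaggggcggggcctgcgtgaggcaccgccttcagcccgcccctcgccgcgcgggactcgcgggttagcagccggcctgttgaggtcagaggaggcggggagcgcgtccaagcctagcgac
Pnpla7: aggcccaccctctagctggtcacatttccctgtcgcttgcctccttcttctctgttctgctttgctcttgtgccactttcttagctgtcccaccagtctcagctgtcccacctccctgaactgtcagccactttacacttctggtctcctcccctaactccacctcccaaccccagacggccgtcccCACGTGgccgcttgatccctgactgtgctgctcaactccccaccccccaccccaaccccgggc

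Peaks near genes were then compared as a readout that the difference did not use. A gene was counted when a deposited peak was centred within 1000 bp of either end of its mm9 position, since the expression table gives no strand. The list of 26445 TFE3 peaks in chow LiFKO covered 33 of the 59 positive genes (55.9%, 95% Wilson interval 43.3 to 67.8), 67 of the 145 negative genes (46.2%, 38.3 to 54.3) and 48.8% of all genes. Among 915 genes that rose in LiFKO on both diets it covered 62.4% (59.2 to 65.5). Among 700 genes that fell in LiFKO on both diets it covered 50.6% (46.9 to 54.3). With all peaks within 1000 bp, the negative genes were thus near all genes and near those that fell on both diets. With only peaks above the median score, their share was lower than that of all genes (25.5% against 36.3%). The list of 11385 peaks in chow Control covered 35.6%, 24.1% and 25.2% in the same order, and 41.2% of the genes that rose on both diets. Of the 1702 HA-nSREBP-1c peaks in Control, some lay near 10 of the 145 negative genes (6.90%, 3.79 to 12.2), 0 of the 59 positive genes (interval 0 to 6.11) and 1.85% of all genes. The share was 4.14% (2.90 to 5.89) among genes that fell on both diets and 2.95% (2.04 to 4.26) among those that rose on both, and these intervals overlap that of the negative genes. The 1367 HA peaks in LiFKO covered 4.83%, 1.69% and 1.43%. Intervals cover counting of genes only, and the pooled lists have no replicates. The header of the HA list of LiFKO mice also names a TFE3 library, so its make-up is uncertain.

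Lysosomal and mitochondrial genes responded to Flcn loss on both diets, with 1 called difference among the lysosomal genes. Over all genes 1.48% had a called difference and 16.1% an unadjusted p under 0.05. The LiFKO effect over all genes was up in 12.4% and down in 13.1% on chow, and in 10.1% and 9.48% on AMLN diet. On both diets 915 of the 13815 genes rose. Of 58 measured lysosomal genes 44 rose and 1 fell on chow, 43 rose and 2 fell on AMLN diet, and 41 rose on both. The medians were 0.72 and 0.60. The difference was called for Cd63 alone among them (14 at an unadjusted p under 0.05), with a median of -0.07. The lysosomal calcium channel Mcoln1 was at 11.23, 11.09 and 11.08 in chow Control, 12.36, 12.23 and 12.31 in chow LiFKO, 10.91, 10.86 and 10.78 in AMLN Control and 12.09, 12.15 and 12.14 in AMLN LiFKO. It rose by 1.16 and 1.28, and the 95% interval of the difference was -0.11 to 0.34. Mitochondrial respiration and citric acid cycle genes (39 measured) had 36 up and 0 down on chow, and 33 up and 0 down on AMLN diet. By limma 0 of them had a called difference (8 at an unadjusted p under 0.05), with a median of -0.10. The difference was negative in sign for 31 of the 39, and for 6309 of the 13815 genes. Of 34 genes of fatty acid oxidation 15 rose on chow and 9 rose and 1 fell on AMLN diet, with medians of 0.44 and 0.07. Called differences numbered 0 (8 at an unadjusted p under 0.05), and 28 of the 34 were negative in sign. The median difference was -0.24, or -0.46 without AMLN Control replicate 3. Cpt1a, the gate of mitochondrial fatty acid oxidation, rose by 0.78 on chow with 0.31 on AMLN diet (difference -0.47, 95% interval -0.97 to 0.03).

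Of 26 genes of cholesterol synthesis and uptake 11 fell and 1 rose on chow (13.1% and 12.4% over all genes). On AMLN diet 16 fell and 0 rose (9.48% and 10.1% over all genes). The difference was called for 0 of them (1.48% over all genes), with a median of -0.06. At an unadjusted p under 0.05 it was 5 of them (16.1% over all genes). Autophagy genes (27 measured) had 8 up and 7 down on chow, 8 up and 2 down on AMLN diet and 0 called differences (5 at an unadjusted p under 0.05). Folliculin and Rag circuit genes (27 measured) had 1 called difference, that of Gpnmb (8 at an unadjusted p under 0.05). Fnip2, a folliculin partner, rose by 1.23 on chow and 2.32 on AMLN diet, and its difference of 1.09 (95% interval 0.52 to 1.66, adjusted p = 0.0633) missed the threshold. It was called without chow LiFKO replicate 3 or AMLN LiFKO replicate 2. Mmp27, a matrix metalloproteinase, rose by 8.34 and 8.03, and the interval of its difference was -0.88 to 0.25. A difference that was not called is not shown to be 0.

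Genes of other liver cells were described beside these results. Of 25 Kupffer cell and macrophage markers 4 rose on chow (12.4% over all genes). On AMLN diet 2 rose and 3 fell (10.1% and 9.48% over all genes). Called differences numbered 3 (1.48% over all genes), all negative: Gpnmb, Cd68 and Cd9. Cd68, a lysosomal protein of macrophages, rose by 2.22 and 0.98 (difference -1.24, SE 0.27), a call that held without chow Control replicate 2, chow LiFKO replicate 1 or AMLN Control replicate 3 and was lost in the other 9 fits (-1.41 to -1.08). Cd9, a tetraspanin, rose by 1.18 on chow alone (difference -1.28, SE 0.25), a call lost in 8 of the 12 fits (-1.47 to -1.12) and held without chow LiFKO replicate 1 or 2, AMLN Control replicate 3 or AMLN LiFKO replicate 1. The median difference over the 25 was 0.03, as over all genes, but the members went both ways. The sign was negative in 11 and positive in 14, with values of -5.64 to 2.78. By limma 12 of the 25 had an unadjusted p under 0.05 (16.1% over all genes). The mean log2 level of the 25 markers was 8.54 to 9.32 in chow Control, 9.12 to 9.46 in chow LiFKO, 9.80 to 10.05 in AMLN Control and 9.52 to 10.19 in AMLN LiFKO. The ranges on chow and on AMLN diet did not overlap within either genotype, and the part of these markers in the differences of Gpnmb, Cd68, Cd9 and Mmp12 was not tested.

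Of 28 matrix and stellate cell genes 3 had a called negative difference (1.05% over all genes): Mmp12 and the basement membrane collagens Col4a1 and Col4a2. The collagens rose by 0.73 and 0.90 on chow, with -0.52 and -0.40 on AMLN diet, differences of -1.26 and -1.3 (SE 0.28 each). Both calls were lost in 10 of the 12 fits, held without AMLN Control replicate 3, and ranged from -1.56 to -1.09. The other fit that kept them left out chow Control replicate 3 (Col4a1) or chow LiFKO replicate 2 (Col4a2). The median of the list was -0.42, and -0.66 without chow Control replicate 3, and its mean level was 9.50 to 9.95 in AMLN Control against 8.52 to 9.18 in the other 9 libraries. Col1a1 fell by 1.53 on AMLN diet with 0.23 on chow, and its difference of -1.75 (95% interval -2.77 to -0.74, adjusted p = 0.0903) missed the threshold. It was called without chow LiFKO replicate 2 or AMLN Control replicate 3. Interferon-stimulated genes (27 measured) had a median of -0.42 on chow and -0.81 on AMLN diet, with 0 called differences (12 at an unadjusted p under 0.05, against 16.1% of all genes). Chemokine and adhesion genes (14) had 0 called (5 at an unadjusted p under 0.05), and a median difference of -0.62. Of 22 acute phase genes 3 had a negative call (1.05% over all genes): Lcn2, Saa2 and Apcs. The difference was positive in sign for 9 of the 22. The Apcs call (-1.64, SE 0.31) held without chow Control replicate 1, chow LiFKO replicate 2, AMLN Control replicate 2, AMLN Control replicate 3 or AMLN LiFKO replicate 3 and was lost in the other 7 fits (-1.87 to -1.47).

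The remaining marker lists had 0 called differences by limma (1.48% over all genes), except the adipocyte and acinar list. They were cholangiocyte (8 measured, 3 at an unadjusted p under 0.05), endothelial (13, 3), erythroid (6, 2), lymphocyte (2 of 16 listed, 0) and neutrophil (3 of 9 listed, 0) markers. Erythroid markers had a median difference of 1.32, and their mean level was 11.87 to 12.96 in chow Control, 11.10 to 11.66 in chow LiFKO, 11.60 to 12.76 in AMLN Control and 10.98 to 12.78 in AMLN LiFKO. Of the adipocyte and acinar list 2 of 12 were measured, and Cela1, an elastase, fell by 2.57 on chow and by 0.85 on AMLN diet. Its difference of 1.72 (SE 0.36) was called without chow LiFKO replicate 3, AMLN Control replicate 3 or AMLN LiFKO replicate 3 and lost in the other 9 fits (1.47 to 1.92). Of 20 genes of bile acid synthesis and transport 2 had a positive call (0.427% over all genes), Slco1a4 and Nr1h4. Clock genes (18) had 0 called (7 at an unadjusted p under 0.05, against 16.1% of all genes). The hour of day at which livers were taken is not given in the labels used here.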

How the data were processed

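RNA-seq of mouse liver was analysed as the authors deposited it: log2 expression values with no counts, so depth is unknown. All 15 libraries share their maximum and nearly their quartiles, as after quantile normalisation, and any offset added before the log is not given in the sources used here. Per the submitters' processing notes, reads were handled with bcl2fastq 2.17, Trimmomatic 0.32, STAR 2.6.0c, SAMtools, featureCounts and limma, on mm9. The library kit does not mark strand, so overlapping and antisense genes cannot be told apart. Peak lists were deposited with a score per peak, from pooled libraries per the file headers (HOMER 4.11 for chow and 4.4 for FPC diet, per the submitters' processing notes). TFE3 peak lists of the FPC diet were not used, since their headers name an input library among the pooled ChIP libraries.

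The main model, in limma 3.58.1 (R 4.3.3), fitted 1 mean per group to 12 libraries (8 residual degrees of freedom, empirical Bayes with a trend), with Benjamini-Hochberg adjustment over 13815 genes and a threshold of 0.05. Differences are on the log2 scale as deposited, with no pseudocount added. The scripts were tested on simulated data. Peaks were assigned to genes in Python 3.11.15 with pandas 2.3.3. A check at start sites was void, because strand was known for 77.5% of the 204 genes, and both gene ends were used instead, a choice made after seeing the files.

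The members and gene lists were chosen with earlier results of these data known. Named genes were Flcn, Tfe3 and Rragd, up to 15 genes per sign by size of the difference among those with a mean above 9.78, up to 6 per class and up to 4 per list by smallest p, and a fixed set of lipid, lysosome and fibrosis genes. Genes named after their values were seen are marked. Alternatives were all 15 libraries, a replicate block, no trend, robust estimates, a filter on low values and leaving out each library. Same-numbered Control and LiFKO libraries had residual correlations of 0.113 to 0.237 on chow and -0.039 to 0.231 on AMLN diet, and over all 18 same-numbered pairs -0.185 to 0.237. Since not every pair exceeded 0.1, the difference between diets was not fitted as paired in the main model.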

Additional observations from a re-analysis of the deposited data

Results flagged for a closer look

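The LiFKO effect differed between diets in 59 genes upward and 145 downward by the test of the difference itself. In 30 of these genes the effect was called in opposite directions on the diets. Those among the named genes were Mmp12 (difference -7.21), Saa2 (-3.24), Elovl5 (-2.64), Epha2 (-2.39), Apcs (-1.64), Fkbp1a (-1.11), Parp3 (-0.83), Txlng (0.72), Slc17a2 (0.90), Cyp4v3 (0.92) and Notum (1.22). The size for Mmp12 is uncertain, since its chow Control values were low. No group held more than 3 libraries, so single libraries could not be tested as outliers.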

How the results depend on the processing

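All 204 genes kept the sign of their difference under every alternative in which they were tested (172 of them under the filter on low values), and on a linear scale 203 did, Pls1 being the exception. No gene whose difference is given above reversed. Srebf2, Ppara, Ppargc1a and S100a8, which the naming rule also picked and which had no called difference, changed sign under at least 1 alternative, and their differences are not given. The count of called differences was 144 with all 15 libraries (39 positive, 105 negative), 112 without the trend (29 and 83), 187 with robust estimates and 180 under the filter, and 128 had an absolute size of at least 1. With a replicate block it was 181, and with a replicate block within diet 351 (113 and 238). Same-numbered Control and LiFKO libraries had residual correlations of 0.113 to 0.237 on chow (3 of 3 over 0.1) and -0.039 to 0.231 on AMLN diet (2 of 3), and 7 of 12 libraries correlated best with one of their own number. The block within diet left the LiFKO effect on chow at 3782 calls against 3525. Leaving out 1 library gave 88 to 455 called differences (22 to 157 positive, 66 to 298 negative), 1954 to 3301 diet effects in Control and 104 to 718 in LiFKO. Diet effects in Control numbered 2028 with the replicate block within diet, and those in LiFKO 254, or 250 without the trend.

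Genes called on AMLN diet alone numbered 31 with all 15 libraries, 77 with the replicate block within diet, 29 without the trend and 17 to 121 without 1 library. Genes called on chow alone numbered 150, 47 and 39 to 218 under the last 3, those in the same direction 67, 18 and 13 to 60, and those in opposite directions 57, 18 and 13 to 55 (17 with all 15 libraries). The cause was not tested. List medians moved when 1 library was left out, among others for adipocyte and acinar markers (-0.54 to 0.22), amino acid and urea cycle (0.07 to 0.29), cholangiocyte markers (-0.33 to 0.03), endoplasmic reticulum stress (-0.13 to 0.16), fatty acid oxidation (-0.46 to -0.15), fibrosis and stellate cells (-0.66 to -0.19), lipogenesis (-1.11 to -0.61) and lipoproteins (-0.01 to 0.16).

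TFE3 peaks of chow Control lay within 5000 bp of 36.6% of the negative genes (34.9% of all genes). Those above the median score lay near 23.7% of the positive and 15.9% of the negative genes (19.0% of all genes). For chow LiFKO, 79.7% of the positive genes (67.7 to 88.0) and 65.5% of the negative genes (57.5 to 72.8) had a peak within 5000 bp. Over all genes it was 61.9%, and among genes that rose on both diets 77.5%. Peaks above the median score lay near 49.2% of the positive genes (36.8 to 61.6) and 25.5% of the negative genes (19.1 to 33.2). Over all genes that share was 36.3%, among genes that rose on both diets 52.6% and among those that fell on both 33.3%. HA peaks of LiFKO above the median score lay near 0% of the positive genes (0.992% of all genes). Depth is unknown, so precision rests on 3 libraries per group.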

Other observations

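Gapdh, a glycolytic enzyme gene often used as a reference gene in expression assays, was among the 30 genes with called effects in opposite directions (named after its values were seen). It was at 12.10, 12.08 and 12.15 in chow Control, 12.42, 12.60 and 12.82 in chow LiFKO, 13.20, 13.03 and 12.98 in AMLN Control and 12.74, 12.57 and 12.81 in AMLN LiFKO. Chow Control was the lowest group and AMLN Control the highest, with no overlap with LiFKO on either diet. Gapdh rose by 0.50 on chow and fell by 0.36 on AMLN diet (SE 0.11 each), a difference of -0.86 (SE 0.15, adjusted p = 0.0161, limma) that was called in all 12 fits that left out a library. Gapdh has many processed pseudogenes, so reads may have been split between copies.

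Genes known to be higher in male liver (17 measured) had a median LiFKO effect of -1.14 on chow and -0.57 on AMLN diet, with a median difference of 0.43. Genes known to be higher in female liver (11) had -1.32 and -0.86, with a median difference of -0.58. Major urinary protein genes (20) had -1.12 and -0.67. The differences had a median SE of 0.73 over the 28 sex-biased genes and 0.91 over the 20. A called difference was found in 1 of the 28 and 0 of the 20 (limma, 1.48% over all genes). At an unadjusted p under 0.05 it was 8 and 0 (16.1% over all genes). The median LiFKO effect over all genes was -0.05 on chow and -0.02 on AMLN diet.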
